A study of Mus musculus with 8 samples.

Results

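The Polycomb and DNA methylation machinery was followed here as 32 genes, which are the genes whose symbol in the scanner files is 1 of a list of subunits and enzymes named by role: PRC2 core and accessory subunits, PRC1 subunits, partners of these complexes, histone demethylases, DNA methyltransferases with Uhrf1, and TET dioxygenases. The 32 genes were represented by 62 probes, and the arrays carried 35019 gene symbols in all. Each of 4 groups was measured on 2 one-colour Agilent arrays, and all groups came from C57BL/6 mice. Passage-8 cells were the derivatives, after 8 passages, of cells sorted for the receptor c-kit and the leukocyte phosphatase CD45, taken from mice aged 8 to 12 weeks out of the left atrial appendage, which is a small muscular pouch on the left atrium. CD45-negative cells were primary cells that carried c-kit and lacked CD45, sorted from appendage explants of mice of the same age after a strong digestion with 0.25% trypsin and 0.1% collagenase D. CD45-positive cells were primary cells carrying both proteins, sorted from explant cultures of mice aged 8 to 12 weeks after a weak digestion with 0.05% trypsin and 0.1% collagenase D. Left ventricle was a wall biopsy from mice aged 12 weeks and served as the study's control. Digestion strength therefore went with the sort gate in the primary cells. The labels do not say whether the 2 samples of a group came from separate mice or cultures. Each p-value therefore measures only the spread between arrays within groups, pooled over all groups.

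Polycomb repression works through 2 kinds of protein complex. PRC2 methylates a lysine of histone H3 through Ezh2 or its relative Ezh1, which need Eed and Suz12 to be active, and PRC1 carries Cbx proteins that bind this mark and Ring1 or Rnf2, which attach ubiquitin to histone H2A. DNA methylation is copied at replication by Dnmt1 with Uhrf1, is placed on unmodified DNA by Dnmt3a and Dnmt3b, and is oxidised by the TET enzymes. Dividing cells use Ezh2, Dnmt1 and Uhrf1 heavily, while Ezh1 is the form typical of tissues whose cells have stopped dividing, such as adult heart muscle.

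Levels are given as log2 processed signal less the 75th percentile of the array, for the probe of a gene with the highest mean, and they were compared between groups and never between genes. All 32 genes were well above background on all 8 arrays, so a filter on dim probes removed none. Ptprc, the gene of CD45, measured -5.56 and -5.16 in passage-8 cells, -5.51 and -3.33 in CD45-negative cells, 2.04 and 1.94 in CD45-positive cells, with -2.32 and -2.88 in left ventricle. It was high in the cells sorted for CD45, and the passage-8 cells derived from such cells were as low as the cells sorted against it. Kit, the gene of c-kit, was at -5.67 and -5.54 in passage-8 cells, -6.33 and -1.54 in CD45-negative cells, -3.57 and -3.32 in CD45-positive cells, with -1.46 and -2.47 in left ventricle, and it passed in 0 of 6 comparisons. CD45-negative array 1 was not well above background for Ptprc or Kit. The 8 cardiomyocyte markers summed to 3674 to 4002 times the 75th percentile signal in left ventricle and to 0.633 to 6.23 times in the cell samples. In these bulk samples fewer cells of a type and less RNA per cell cannot be told apart.

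The 2 CD45-negative arrays stood apart from each other. Of 14 macrophage markers, 12 on array 1 and 14 on array 2 were well above background, and their median level was -2.13 and 1.27. Adgre1, a surface protein of macrophages, was at -3.46 and 1.44, and Ctss, a lysosomal protease, at -1.62 and 3.57. The summed signal of the 14 was 61.7 and 125 times the 75th percentile on these arrays, against 35.3 and 35.7 in passage-8 cells, 1509 to 1564 in CD45-positive cells and 105 to 112 in left ventricle. The root mean square SD between the arrays of a group, over the 32 genes, was 0.12 in passage-8 cells, 0.32 in CD45-negative cells, 0.13 in CD45-positive cells and 0.33 in left ventricle. The test described below gave every group the same spread, drawn from all arrays, so a p-value for 2 groups also rests on the others. For these genes the shared spread is above that of passage-8 and CD45-positive cells and below that of the other groups. The RNA of the cells and that of the ventricle were extracted with different reagents, so extraction and tissue cannot be told apart in the comparisons with left ventricle.

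A gene passed a comparison at an adjusted p under 0.05 (limma, Benjamini-Hochberg over all genes tested in that comparison) with an absolute log2 difference of at least 1. Of the 192 tests of 32 genes in 6 comparisons 63 passed, and 22 genes passed at least 1. Passage-8 cells had 13 genes above and 2 below CD45-positive cells, which is 40.6% and 6.25% of the 32, where 13.7% and 11.5% of all genes tested passed in those directions. CD45-negative cells had 7 genes higher and 0 lower than CD45-positive cells, 21.9% of the 32 against 12.2% of all genes for the higher direction and 11.4% for the lower. Only Tet1 was higher and only Dnmt3l, Jarid2 and Phc2 were lower in passage-8 than in CD45-negative cells, or 3.12% and 9.38% of the 32, where all genes passed at 8.37% and 7.85%. Among all genes that passed this last comparison 51.6% were higher, and 31.0% were higher after normexp background correction.

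Passage-8 cells had 10 genes above and 4 below left ventricle, 31.2% and 12.5% of the 32, with 20.7% and 19.5% of all genes passing in those directions. CD45-negative cells had 8 higher and 4 lower genes, 25.0% and 12.5%, with 20.6% and 19.9% of all genes. CD45-positive cells had 5 higher and 6 lower genes, 15.6% and 18.8%, which lies near the 18.6% and 20.5% of all genes. The 32 genes had a median log2 difference of 0.60 in passage-8 and 0.46 in CD45-negative cells against CD45-positive cells, where the medians of all genes were 0.16 and 0.17. Comparisons with the same group share that group's 2 arrays, so their values are given side by side and were not set against each other. Fewer of the 32 genes passed between passage-8 and CD45-positive cells when any 1 of those arrays was left out. Fewer also passed between CD45-negative and CD45-positive cells without either CD45-positive array. The same held between passage-8 and CD45-negative cells without either passage-8 array. Leaving out a CD45-positive array, which that last comparison does not contain, also lowered its count. In each of these cases the number passing among all genes tested fell as well. With 1 array left in a group the spread came from the other groups, so a call could be lost while its difference kept its size.

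**Figure D1:**
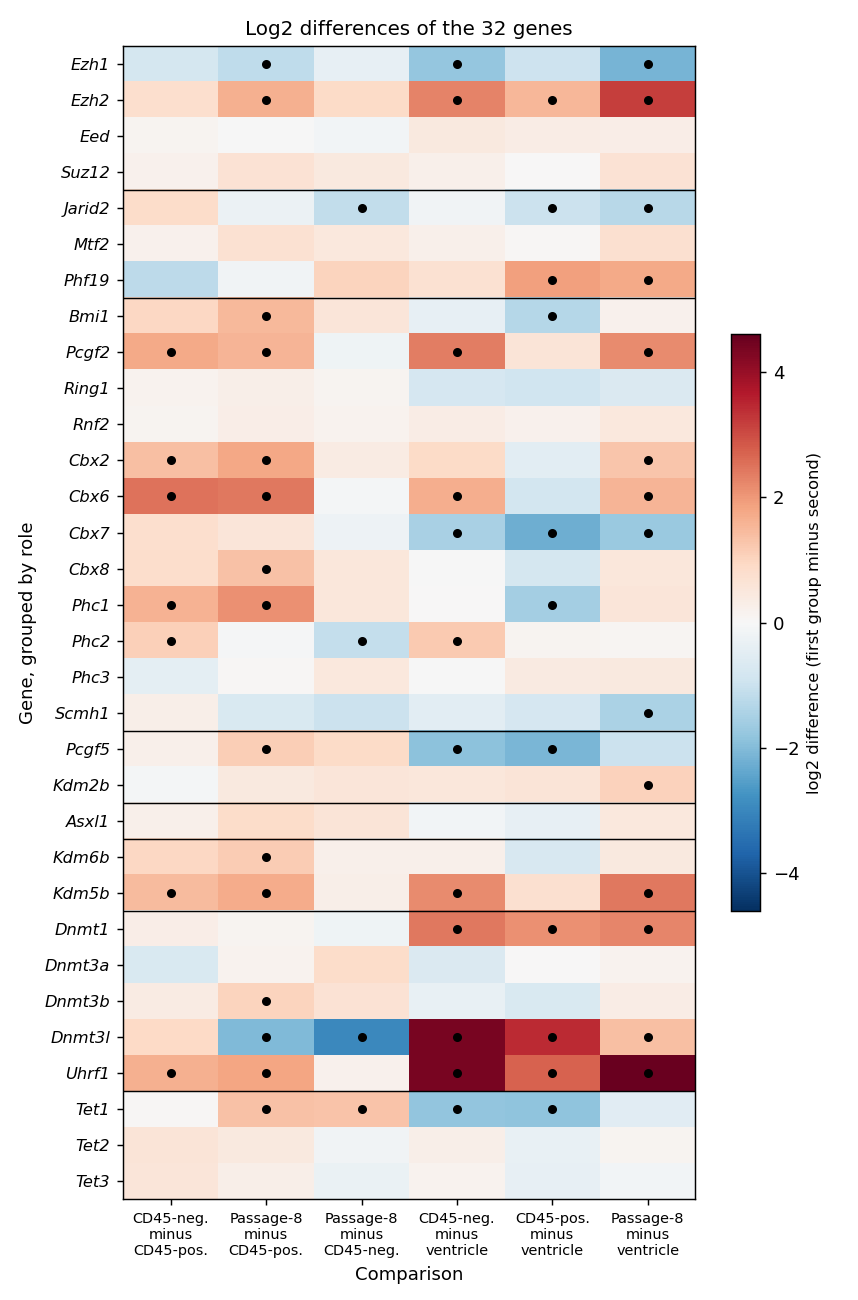
Log2 difference of each of the 32 genes (rows, grouped by role) in each of the 6 comparisons (columns, first group minus second), with colour from blue (lower in the first group) to red (higher). Black dots mark the 63 differences that passed, which range from -2.97 for Dnmt3l in passage-8 minus CD45-negative cells to 4.53 for Uhrf1 in passage-8 cells minus left ventricle.

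The 2 catalytic subunits of PRC2 were ordered in opposite ways over the 4 groups. Ezh2, the methyltransferase of dividing cells, measured 2.10 and 1.98 in passage-8 cells, 1.21 and 1.12 in CD45-negative cells, 0.42 and 0.36 in CD45-positive cells, with -1.02 and -1.23 in left ventricle. Ezh1, its relative with weaker methyltransferase activity, measured 2.69 and 2.65 in passage-8 cells, 3.09 and 2.98 in CD45-negative cells, 3.84 and 3.86 in CD45-positive cells, with 4.30 and 5.30 in left ventricle. No 2 groups overlapped in either gene, and the group order of Ezh1 was that of Ezh2 reversed.

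Against left ventricle, Ezh2 was higher by 3.17 in passage-8 cells (SE 0.17, 8.98-fold, adjusted p = 7.08e-05), by 2.29 in CD45-negative cells (SE 0.17, 4.89-fold, adjusted p = 0.000184) and by 1.52 in CD45-positive cells (SE 0.17, 2.86-fold, adjusted p = 0.000815). It was also higher in passage-8 than in CD45-positive cells, by 1.65 (SE 0.17, 3.14-fold, adjusted p = 0.00129), and each of these 4 calls held under every alternative run. The steps between neighbours among the cells were smaller: 0.88 for passage-8 minus CD45-negative cells (adjusted p = 0.0181) and 0.77 for CD45-negative minus CD45-positive cells (adjusted p = 0.0184), both below the minimum difference of 1. Ezh1 was lower than in left ventricle by 2.13 in passage-8 cells (log2 difference -2.13, SE 0.33, 4.39-fold, adjusted p = 0.00256) and by 1.77 in CD45-negative cells (log2 difference -1.77, SE 0.33, 3.41-fold, adjusted p = 0.00522), while CD45-positive cells differed by -0.95 (adjusted p = 0.0523). That last difference passed, at -1.45, without left ventricle array 1, the lower of the 2, and at -1.0 to -1.15 under 4 other settings. Ezh1 was also lower in passage-8 than in CD45-positive cells, by -1.18 (SE 0.33, adjusted p = 0.0361). Without any 1 of the 4 arrays compared the call was lost, though the difference stayed at -1.21 to -1.16. The call was also lost under 4 other settings. The 3 dimmer Ezh1 probes fell in the same 2 comparisons with left ventricle as the brightest.

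The other PRC2 core subunits passed in no comparison. Eed, which binds the finished histone mark, measured 3.12 and 3.08 in passage-8 cells, 3.40 and 3.07 in CD45-negative cells, 3.12 and 3.13 in CD45-positive cells, with 2.73 and 2.87 in left ventricle. Its group means spanned 0.44, and those of Suz12, the scaffold subunit, spanned 0.67. For Suz12 the differences between passage-8 cells and CD45-positive cells (0.66, adjusted p = 0.0261) and between passage-8 cells and left ventricle (0.67, adjusted p = 0.0155) were past the p threshold and short of the minimum size.

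A list of 30 cell cycle genes was ordered over the groups much as Ezh2 was. Its median was 2.80 and 2.74 in passage-8 cells, 2.77 and 2.37 in CD45-negative cells, 1.88 and 1.93 in CD45-positive cells, with -0.68 and -1.89 in left ventricle. Its summed signal was 272 to 278 times the 75th percentile in passage-8 cells, 210 to 288 in CD45-negative cells, 195 to 200 in CD45-positive cells, and 28.4 to 42.0 in left ventricle, where Aurkb and Ccne2 were not well above background on either array. Of these genes 27 of 30 rose in passage-8 cells, 26 of 29 tested in CD45-negative cells and 28 of 30 in CD45-positive cells against left ventricle. Of all genes tested 20.7%, 20.6% and 18.6% were higher in those comparisons. A gene dim in left ventricle was tested only because the cell group was brighter, so these counts are a description. The part of proliferation in the difference of Ezh2, Uhrf1 and Dnmt1 was not tested.

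The start regions of Ezh2 and Ezh1 are shown because the 2 genes were ordered oppositely and because only that of Ezh2 held a motif of the E2F type. E2F factors switch on genes needed for DNA replication and bind motifs of this kind. Each window runs from 250 bases before to 50 after a start given by RefSeq on GRCm38.p6, printed 5′ to 3′ on the gene's strand, and 30 of the 32 genes have such a window in the table used, with Cbx2 and Kdm6b as the exceptions. The motifs searched on both strands were TTTCCCGC, TTTCGCGC, TTTGCCGC and TTTGGCGC, the 4 forms of 1 consensus, and capitals mark a match. Ezh2 lies on chr6:47594981-47595280, minus strand, with TTTGGCGC beginning at base 4 after the start. The Ezh1 window, chr11:101226414-101226713 on the minus strand, held 23 CpG sites and none of the 4 forms.
Ezh2: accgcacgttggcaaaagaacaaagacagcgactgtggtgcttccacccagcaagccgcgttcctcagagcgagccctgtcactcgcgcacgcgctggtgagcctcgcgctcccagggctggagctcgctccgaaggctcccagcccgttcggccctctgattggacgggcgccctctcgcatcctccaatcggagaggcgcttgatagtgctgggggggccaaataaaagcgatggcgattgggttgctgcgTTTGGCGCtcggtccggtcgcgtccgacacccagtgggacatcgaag
Ezh1: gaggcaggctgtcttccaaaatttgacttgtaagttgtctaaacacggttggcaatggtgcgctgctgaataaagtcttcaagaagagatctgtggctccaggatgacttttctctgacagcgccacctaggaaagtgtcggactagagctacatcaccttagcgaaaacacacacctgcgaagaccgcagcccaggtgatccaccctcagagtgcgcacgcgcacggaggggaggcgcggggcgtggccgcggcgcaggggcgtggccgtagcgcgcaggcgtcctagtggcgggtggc

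A match stood in the windows of 5 of 30 genes of the machinery (16.7%), which were Ezh2, Suz12, Phf19, Dnmt1 and Uhrf1, and in those of 704 of 27025 genes in the whole table (2.60%). Counted by window it was 5 of 47 (10.6%) and 744 of 32851 (2.26%). The windows of the machinery were also richer in CpG, with a median of 23 sites against 7 in all windows, and the motif itself contains CpG. These matches are letters in a window, and binding was not measured.

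**Figure D2:**
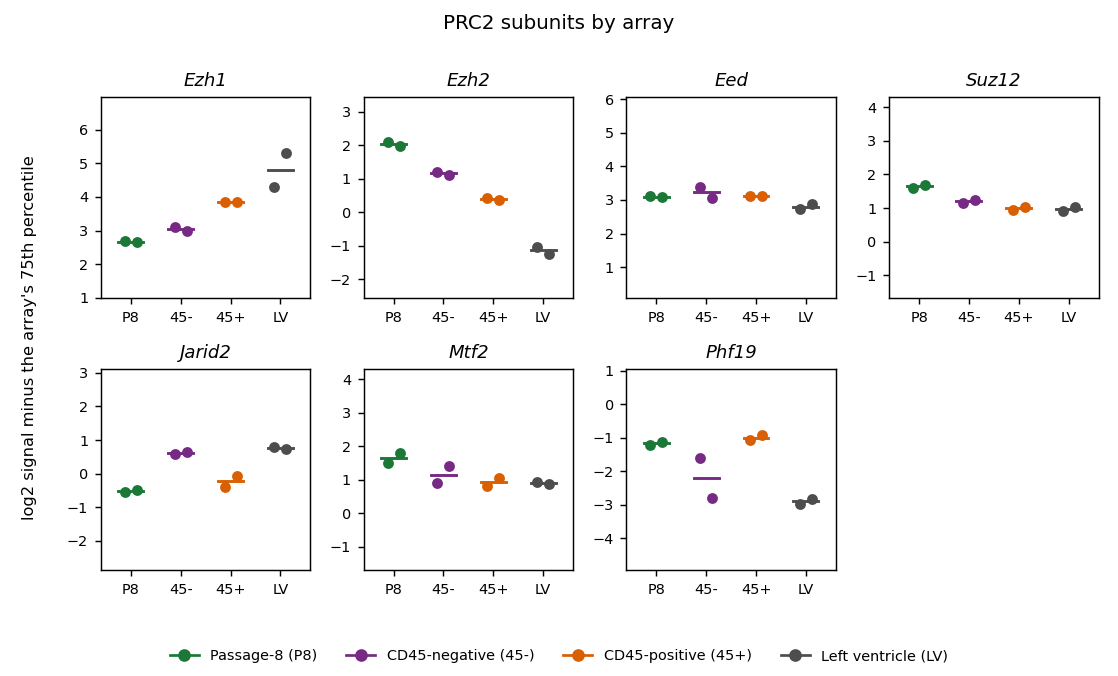
Level of the 7 PRC2 genes on each array (y axis, log2 signal minus the array's 75th percentile; every panel spans the same number of log2 units), for passage-8 (P8), CD45-negative (45-) and CD45-positive (45+) cells and left ventricle (LV). Points are arrays and lines group means: Ezh2 steps down from left to right, Ezh1 steps up, and the means of Eed span 0.44.

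The accessory subunits, which steer PRC2 to its sites, differed in separate patterns. Jarid2, which helps recruit PRC2 in embryonic stem cells, measured -0.54 and -0.49 in passage-8 cells, 0.59 and 0.65 in CD45-negative cells, -0.39 and -0.07 in CD45-positive cells, with 0.79 and 0.74 in left ventricle. CD45-negative cells and left ventricle were the high groups, with no overlap with the other two. Jarid2 was lower in passage-8 cells than in left ventricle (log2 difference -1.28, SE 0.18, 2.43-fold, adjusted p = 0.00186) and than in CD45-negative cells (-1.13, SE 0.18, 2.19-fold, adjusted p = 0.00958), the second of which was lost without either passage-8 array (adjusted p = 0.0844 and 0.0873). In CD45-positive cells minus left ventricle it was at the threshold of size, -1.0 (adjusted p = 0.00519), and fell short without CD45-positive array 1 (-0.84) or left ventricle array 1 (-0.97).

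Phf19, a Polycomb-like protein that binds active chromatin marks and brings PRC2 to them, measured -1.21 and -1.13 in passage-8 cells, -1.60 and -2.81 in CD45-negative cells, -1.07 and -0.92 in CD45-positive cells, with -2.97 and -2.83 in left ventricle. The CD45-negative arrays spread over 1.21 log2 units, between the 2 high groups and the ventricle. Phf19 was higher than in left ventricle in CD45-positive cells (1.90, SE 0.38, 3.74-fold, adjusted p = 0.00809) and in passage-8 cells (1.73, SE 0.38, 3.32-fold, adjusted p = 0.0112). The first call was lost without CD45-positive array 2 (1.82, adjusted p = 0.0563) and the second without passage-8 array 2 (adjusted p = 0.056) or left ventricle array 1 (adjusted p = 0.0593). The CD45-negative minus CD45-positive difference of -1.21 (adjusted p = 0.0564) passed at -1.82 without CD45-negative array 1, which also let passage-8 minus CD45-negative cells pass at 1.65, and CD45-negative cells minus left ventricle passed at 1.30 without CD45-negative array 2. Mtf2, a second Polycomb-like protein, had group means from 0.90 to 1.65 and passed nowhere with its brightest probe. The mean of its probes passed in 3 comparisons. Its other probe was well above background only on the passage-8 arrays and CD45-negative array 1, so these passes rest partly on values near the floor.

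Canonical PRC1 subunits were among the genes that were low in CD45-positive cells. Of the 12 core and canonical subunits 6 were higher in passage-8 cells and 5 in CD45-negative cells than in CD45-positive cells with 0 lower in either comparison, which is 50% and 41.7% of the 12, where 13.7% and 12.2% of all genes tested were higher and 11.5% and 11.4% lower. The median log2 difference of the 12 was 0.95 and 0.88, against 0.16 and 0.17 for all genes tested. CD45-positive cells were also the group with the highest macrophage sum, as given above, and the part of cell identity in these differences was not tested.

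Cbx6, a chromodomain protein that reads the Polycomb mark, measured 4.73 and 4.71 in passage-8 cells, 5.21 and 4.42 in CD45-negative cells, 2.34 and 2.27 in CD45-positive cells, with 3.23 and 3.06 in left ventricle. CD45-positive cells lay below every other array, and the passage-8 and CD45-negative arrays overlapped. The gene was higher than in CD45-positive cells by 2.41 in passage-8 cells (SE 0.28, 5.32-fold, adjusted p = 0.00192) and by 2.51 in CD45-negative cells (SE 0.28, 5.69-fold, adjusted p = 0.00224). Against left ventricle the differences were 1.57 (adjusted p = 0.00473) and 1.67 (adjusted p = 0.00362). The last of these came to 0.96 with the mean of the 3 Cbx6 probes. On the other probes it was 1.08 and 0.13 (adjusted p = 0.0605 and 0.747), and neither passed. The dimmest probe also did not pass in CD45-negative minus CD45-positive cells, at 0.73 (adjusted p = 0.112).

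Pcgf2, the RING-finger partner of Ring1 and Rnf2 in a canonical form of PRC1, was at 0.27 and 0.24 in passage-8 cells, 0.53 and 0.35 in CD45-negative cells, -1.32 and -1.29 in CD45-positive cells, with -2.13 and -1.71 in left ventricle. Passage-8 and CD45-negative cells lay above the other groups with no overlap. Pcgf2 was higher than in left ventricle by 2.17 in passage-8 cells (SE 0.20, 4.50-fold, adjusted p = 0.00039) and by 2.36 in CD45-negative cells (SE 0.20, 5.13-fold, adjusted p = 0.00029). It was higher than in CD45-positive cells by 1.56 (adjusted p = 0.00281) and 1.74 (adjusted p = 0.00248). All 4 calls held under every alternative, though of these the second Pcgf2 probe passed only those of passage-8 cells.

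Bmi1, the counterpart of Pcgf2 that maintains stem cells and represses the Cdkn2a locus, measured 2.79 and 3.01 in passage-8 cells, 2.42 and 2.29 in CD45-negative cells, 1.36 and 1.45 in CD45-positive cells, with 2.39 and 3.05 in left ventricle. CD45-positive cells were the low group. Bmi1 was higher in passage-8 than in CD45-positive cells by 1.50 (SE 0.26, 2.82-fold, adjusted p = 0.00719). That call was lost without passage-8 array 2 or either CD45-positive array, while the difference stayed at 1.39 to 1.54. Bmi1 was lower in CD45-positive cells than in left ventricle (-1.32, SE 0.26, adjusted p = 0.00698), which came to -0.99 without left ventricle array 2. The other Bmi1 probe passed in the same 2 comparisons, at 1.25 and -1.14.

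Cbx2, the Cbx protein that compacts chromatin, measured -0.52 and -0.51 in passage-8 cells, -0.59 and -1.23 in CD45-negative cells, -2.44 and -2.12 in CD45-positive cells, with -2.03 and -1.53 in left ventricle. It was higher than in CD45-positive cells by 1.77 in passage-8 cells (SE 0.29, adjusted p = 0.00634) and by 1.37 in CD45-negative cells (SE 0.29, adjusted p = 0.0164), and higher in passage-8 cells than in left ventricle by 1.27 (SE 0.29, adjusted p = 0.0128). The 1.77 was at adjusted p = 0.0507 without CD45-positive array 1, the 1.37 was lost without either CD45-positive array (adjusted p = 0.0775 and 0.106), and the 1.27 without either passage-8 array or left ventricle array 1 (adjusted p = 0.0644 to 0.0654). CD45-negative cells minus left ventricle, at 0.87, passed at 1.19 without CD45-negative array 2. Cbx8, another reader of the mark, measured -0.26 and -0.16 in passage-8 cells, -0.45 and -1.01 in CD45-negative cells, -1.63 and -1.47 in CD45-positive cells, with -0.52 and -0.93 in left ventricle. CD45-positive cells were again lowest, and passage-8 minus CD45-positive cells was 1.34 (SE 0.26, 2.54-fold, adjusted p = 0.0105). That call was lost without any 1 of the 4 arrays compared, while the difference stayed at 1.26 to 1.42. CD45-negative minus CD45-positive cells passed at 1.10 without CD45-negative array 2, and CD45-positive cells minus left ventricle at -1.03 without left ventricle array 2.

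Phc1, a polyhomeotic protein that lets PRC1 polymerise, measured 0.11 and -0.15 in passage-8 cells, -0.16 and -0.92 in CD45-negative cells, -2.17 and -2.08 in CD45-positive cells, with -1.15 and 0.00 in left ventricle. The differences from CD45-positive cells were 2.11 in passage-8 cells (SE 0.43, 4.32-fold, adjusted p = 0.0132) and 1.59 in CD45-negative cells (SE 0.43, 3.01-fold, adjusted p = 0.0354), and CD45-positive cells minus left ventricle was -1.56 (adjusted p = 0.0255). These 3 calls rested on 1 probe, since the other Phc1 probe gave -0.73, -0.06 and -0.50 and passed in none. The first was also lost without any 1 of its 4 arrays, at differences of 1.98 to 2.24, and came to 0.69 with the mean of the probes. The second was lost without CD45-negative array 1 or any passage-8 or CD45-positive array, at 1.21 to 1.63. With the mean of the probes it came to 0.77. It was also lost with quantile normalization, the authors' value table, no filter on dim probes, array weights and a replicate block (adjusted p = 0.0556 to 0.0809). The third was lost without either CD45-positive array or left ventricle array 2, at -1.6 to -0.98. With no filter on dim probes it was at adjusted p = 0.0501.

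Phc2, a paralog of Phc1, had its highest level in CD45-negative cells. It measured 4.12 and 4.10 in passage-8 cells, 5.35 and 5.10 in CD45-negative cells, 4.21 and 4.09 in CD45-positive cells, with 3.79 and 4.28 in left ventricle, so that all groups but the CD45-negative one overlapped. Its log2 difference was -1.11 in passage-8 minus CD45-negative cells (SE 0.22, adjusted p = 0.0193), 1.08 in CD45-negative minus CD45-positive cells (SE 0.22, adjusted p = 0.0149) and 1.19 in CD45-negative cells minus left ventricle (SE 0.22, adjusted p = 0.00551). The first 2 are close to the minimum difference and were lost without CD45-negative array 1 (-0.99 and 0.95) and without either CD45-positive array (adjusted p = 0.0528 to 0.119), the first also without either passage-8 array (adjusted p = 0.112 and 0.129). Both were also lost after normexp background correction (-0.92 and 0.88), in the authors' value table (-0.91 and 0.98), with quantile normalization and with the mean of the probes. Median centring lost the second, at 0.99. The first was lost with no filter on dim probes, with only the 2 groups compared and with array weights (adjusted p = 0.0501 to 0.0529). The 1.19 came to 0.95 without left ventricle array 1 and to 0.93 with the mean of the probes. The other Phc2 probe passed in none of the 3.

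**Figure D3:**
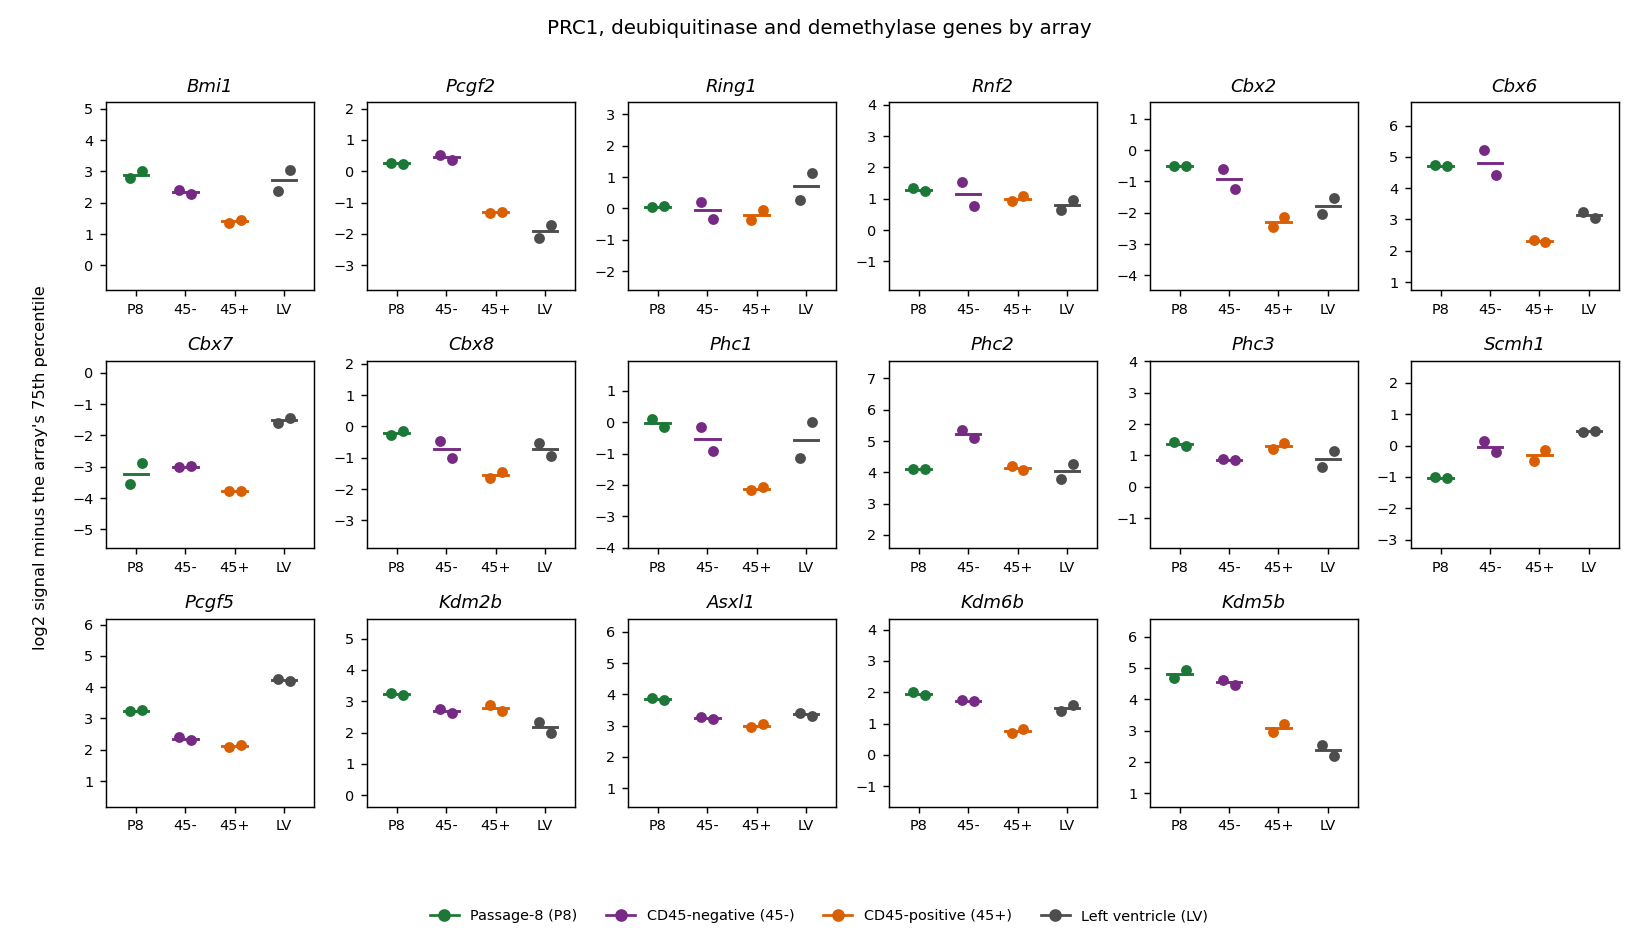
Level of the PRC1 genes, the deubiquitinase partner Asxl1 and the demethylases Kdm6b and Kdm5b on each array (y axis, log2 signal minus the array's 75th percentile; every panel spans the same number of log2 units), for passage-8 (P8), CD45-negative (45-) and CD45-positive (45+) cells and left ventricle (LV). Points are arrays and lines group means. CD45-positive cells have the lowest mean in Cbx2, Cbx6, Cbx7, Cbx8, Phc1, Bmi1, Ring1, Pcgf5, Asxl1 and Kdm6b. Left ventricle has the highest mean in Cbx7, Pcgf5, Ring1 and Scmh1.

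Cbx7 and Pcgf5, like Scmh1 and Ring1 below, had their highest mean in left ventricle. Cbx7, the main Cbx reader of embryonic stem cells, measured -3.56 and -2.88 in passage-8 cells, -3.02 and -2.97 in CD45-negative cells, -3.77 and -3.78 in CD45-positive cells, with -1.59 and -1.44 in left ventricle. It was lower than in left ventricle in passage-8 cells (-1.71, SE 0.25, 3.27-fold, adjusted p = 0.00216), in CD45-negative cells (-1.48, SE 0.25, 2.79-fold, adjusted p = 0.00369) and in CD45-positive cells (-2.26, SE 0.25, 4.80-fold, adjusted p = 0.000756). The other Cbx7 probe passed in the same direction in all 3, while the CD45-negative difference came to -0.58 after normexp background correction and was at adjusted p = 0.15 with array weights. Pcgf5, a subunit of a variant PRC1 that lacks Cbx proteins, measured 3.23 and 3.26 in passage-8 cells, 2.40 and 2.31 in CD45-negative cells, 2.10 and 2.15 in CD45-positive cells, with 4.27 and 4.20 in left ventricle. Every pair of groups was free of overlap. Pcgf5 was lower than in left ventricle in CD45-negative cells (-1.88, SE 0.16, 3.68-fold, adjusted p = 0.000277) and CD45-positive cells (-2.11, SE 0.16, 4.32-fold, adjusted p = 0.000192), was -0.99 in passage-8 cells minus left ventricle (adjusted p = 0.00306), and was higher in passage-8 than in CD45-positive cells by 1.12 (SE 0.16, adjusted p = 0.00372). The -0.99 passed, at -1.01 and -1.03, without passage-8 array 2 or left ventricle array 2, and the 1.12 came to 0.98 with the mean of the probes.

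Scmh1, which joins PRC1 through a domain like that of the Phc proteins, measured -1.01 and -1.03 in passage-8 cells, 0.14 and -0.22 in CD45-negative cells, -0.49 and -0.14 in CD45-positive cells, with 0.44 and 0.46 in left ventricle. It was lower in passage-8 cells than in left ventricle (-1.47, SE 0.21, 2.77-fold, adjusted p = 0.00204), and passage-8 minus CD45-negative cells was -0.98 (adjusted p = 0.0246), or -1.16 and past the threshold without CD45-negative array 2. Kdm2b, which binds unmethylated CpG islands and recruits variant PRC1, measured 3.27 and 3.21 in passage-8 cells, 2.76 and 2.63 in CD45-negative cells, 2.87 and 2.69 in CD45-positive cells, with 2.34 and 2.00 in left ventricle. It was higher in passage-8 cells than in left ventricle by 1.07 (SE 0.19, adjusted p = 0.00489), which came to 0.90 without left ventricle array 2. Ring1 and Rnf2, the ubiquitin ligases at the centre of every PRC1, passed in 0 comparisons, as did Phc3 and Asxl1, a partner of the deubiquitinase Bap1. Their group means spanned 0.92 in Ring1, 0.49 in Rnf2, 0.49 in Phc3 and 0.86 in Asxl1. Ring1 was lower than left ventricle by -0.65 to -0.92 in the cell groups, and passed in all 3 comparisons, at -1.09 to -1.36, without left ventricle array 1.

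The 2 histone demethylases were also lower in CD45-positive than in passage-8 cells. Kdm5b, which removes the histone H3 methylation of active promoters, measured 4.68 and 4.94 in passage-8 cells, 4.62 and 4.45 in CD45-negative cells, 2.96 and 3.22 in CD45-positive cells, with 2.54 and 2.20 in left ventricle. The 4 arrays of passage-8 and CD45-negative cells lay above the other 4. Kdm5b was higher than in left ventricle by 2.44 in passage-8 cells (SE 0.22, 5.41-fold, adjusted p = 0.000329) and by 2.16 in CD45-negative cells (SE 0.22, 4.48-fold, adjusted p = 0.000494), and higher than in CD45-positive cells by 1.72 (adjusted p = 0.00248) and 1.44 (adjusted p = 0.00534). The 1.44 was at adjusted p = 0.0509 without CD45-positive array 1. All 4 Kdm5b probes passed against CD45-positive cells in both comparisons. Against left ventricle probe A_55_P1960576 gave -0.02 and -0.24 in passage-8 and CD45-negative cells. In CD45-positive cells it passed as lower, at -1.36 (adjusted p = 0.0149), where the probe used gave 0.72. Probe A_55_P1960581 did not pass in passage-8 cells minus left ventricle, at 1.11 (adjusted p = 0.0682), and passed in CD45-negative cells, at 1.30.

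Kdm6b, which removes the Polycomb mark itself and is induced in activated macrophages, measured 2.00 and 1.91 in passage-8 cells, 1.74 and 1.71 in CD45-negative cells, 0.70 and 0.84 in CD45-positive cells, with 1.39 and 1.61 in left ventricle. The CD45-positive arrays were the lowest 2 of the 8. Passage-8 minus CD45-positive cells was 1.18 (SE 0.17, 2.27-fold, adjusted p = 0.00416), and CD45-negative minus CD45-positive cells was 0.95 (SE 0.17, adjusted p = 0.00988), short of the minimum size.

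Of the DNA methylation genes, Uhrf1, Dnmt1 and Dnmt3l were higher in all 3 cell groups than in left ventricle. Uhrf1, which recognises DNA methylated on 1 strand after replication and brings Dnmt1 to it, measured 3.27 and 3.18 in passage-8 cells, 3.33 and 2.77 in CD45-negative cells, 1.54 and 1.28 in CD45-positive cells, with -0.90 and -1.71 in left ventricle. The cell arrays were all above the ventricle arrays, and CD45-positive cells lay between. Uhrf1 was higher than in left ventricle by 4.53 in passage-8 cells (SE 0.33, 23.1-fold, adjusted p = 0.000172), by 4.36 in CD45-negative cells (SE 0.33, 20.5-fold, adjusted p = 0.000191) and by 2.71 in CD45-positive cells (SE 0.33, 6.54-fold, adjusted p = 0.00108). Against CD45-positive cells it was higher by 1.82 in passage-8 cells (SE 0.33, 3.53-fold, adjusted p = 0.00862) and by 1.65 in CD45-negative cells (SE 0.33, 3.13-fold, adjusted p = 0.0134). The 1.82 was lost without CD45-positive array 2 (adjusted p = 0.07) and the 1.65 without either CD45-positive array (adjusted p = 0.0644 and 0.104). On the other Uhrf1 probe these differences were 1.54 (adjusted p = 0.011) and 0.48 (adjusted p = 0.264), the second of which did not pass, and passage-8 minus CD45-negative cells passed at 1.07 (adjusted p = 0.049), where the probe used gave 0.18.

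Dnmt1, the maintenance methyltransferase, measured 0.48 and 0.40 in passage-8 cells, 0.72 and 0.56 in CD45-negative cells, 0.33 and 0.31 in CD45-positive cells, with -1.59 and -1.99 in left ventricle. The cell groups lay within 0.32 of each other and passed in no comparison among themselves. Against left ventricle Dnmt1 was higher by 2.23 in passage-8 cells (SE 0.20, 4.69-fold, adjusted p = 0.000333), by 2.43 in CD45-negative cells (SE 0.20, 5.38-fold, adjusted p = 0.000246) and by 2.11 in CD45-positive cells (SE 0.20, 4.32-fold, adjusted p = 0.000416). These calls, and those of Uhrf1 against left ventricle, held under every alternative. Start windows of both genes are shown because they are the pair that copies methylation, and each holds a motif of the E2F type described above. The Uhrf1 window is chr17:56304063-56304362, plus strand, with TTTCGCGC beginning 185 bases before the start. The Dnmt1 window is chr9:20952574-20952873, minus strand, with TTTCGCGC on the opposite strand from 219 bases before the start and TTTGGCGC from base 34 after it. RefSeq gives further starts for each gene whose windows held no match.
Uhrf1: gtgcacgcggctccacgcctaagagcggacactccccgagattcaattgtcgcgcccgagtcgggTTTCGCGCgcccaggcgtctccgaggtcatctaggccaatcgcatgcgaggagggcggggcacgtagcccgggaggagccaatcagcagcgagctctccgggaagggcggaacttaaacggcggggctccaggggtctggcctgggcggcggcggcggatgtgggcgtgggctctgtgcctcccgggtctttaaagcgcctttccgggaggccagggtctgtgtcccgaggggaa
Dnmt1: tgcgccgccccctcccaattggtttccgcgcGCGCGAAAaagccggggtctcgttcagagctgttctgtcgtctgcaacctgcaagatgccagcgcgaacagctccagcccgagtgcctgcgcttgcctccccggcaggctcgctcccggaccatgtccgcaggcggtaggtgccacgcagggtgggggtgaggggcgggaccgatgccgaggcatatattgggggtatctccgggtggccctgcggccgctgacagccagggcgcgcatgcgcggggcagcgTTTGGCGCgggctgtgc

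Dnmt3l, a relative of the methyltransferases without activity of its own that stimulates Dnmt3a and is best known from germ cells, measured -2.51 and -2.39 in passage-8 cells, 0.83 and 0.19 in CD45-negative cells, -0.41 and -0.41 in CD45-positive cells, with -3.94 and -3.75 in left ventricle. No groups overlapped, and the primary cells of both sorts were above the passage-8 cells. Against left ventricle Dnmt3l was higher by 1.39 in passage-8 cells (SE 0.25, 2.62-fold, adjusted p = 0.00466), by 4.36 in CD45-negative cells (SE 0.25, 20.5-fold, adjusted p = 8.37e-05) and by 3.44 in CD45-positive cells (SE 0.25, 10.8-fold, adjusted p = 0.000168). In passage-8 cells it was lower than in CD45-negative cells (-2.97, SE 0.25, 7.82-fold, adjusted p = 0.00124) and than in CD45-positive cells (-2.04, SE 0.25, 4.13-fold, adjusted p = 0.00218). CD45-negative minus CD45-positive cells was 0.92 (adjusted p = 0.0343), or 1.24 and past the threshold without CD45-negative array 2, and the 1.39 came to 0.54 after normexp background correction.

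The enzymes that place new methylation differed less. Dnmt3b measured -0.36 and -0.37 in passage-8 cells, -1.06 and -0.99 in CD45-negative cells, -1.36 and -1.44 in CD45-positive cells, with -0.91 and -0.47 in left ventricle. Passage-8 minus CD45-positive cells was 1.04 (SE 0.20, adjusted p = 0.011), at the edge of the minimum difference. The call was lost without any 1 of the 4 arrays compared, at differences of 1.0 to 1.08. The difference fell to 0.89 to 0.96 with quantile normalization, median centring, normexp background correction, the authors' value table and the mean of the probes. Of the other Dnmt3b probes 1 passed, at 1.18, and 1 did not, at 0.44. Dnmt3a measured 2.57 and 2.53 in passage-8 cells, 2.08 and 1.33 in CD45-negative cells, 2.56 and 2.22 in CD45-positive cells, with 2.65 and 2.11 in left ventricle, and passed in 0 comparisons. Its 2 CD45-negative arrays lay 0.75 apart, and without CD45-negative array 1, the higher of them, it passed in all 3 comparisons of that group, at 1.21 for passage-8 minus CD45-negative cells, -1.06 for CD45-negative minus CD45-positive cells and -1.05 for CD45-negative cells minus left ventricle.

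**Figure D4:**
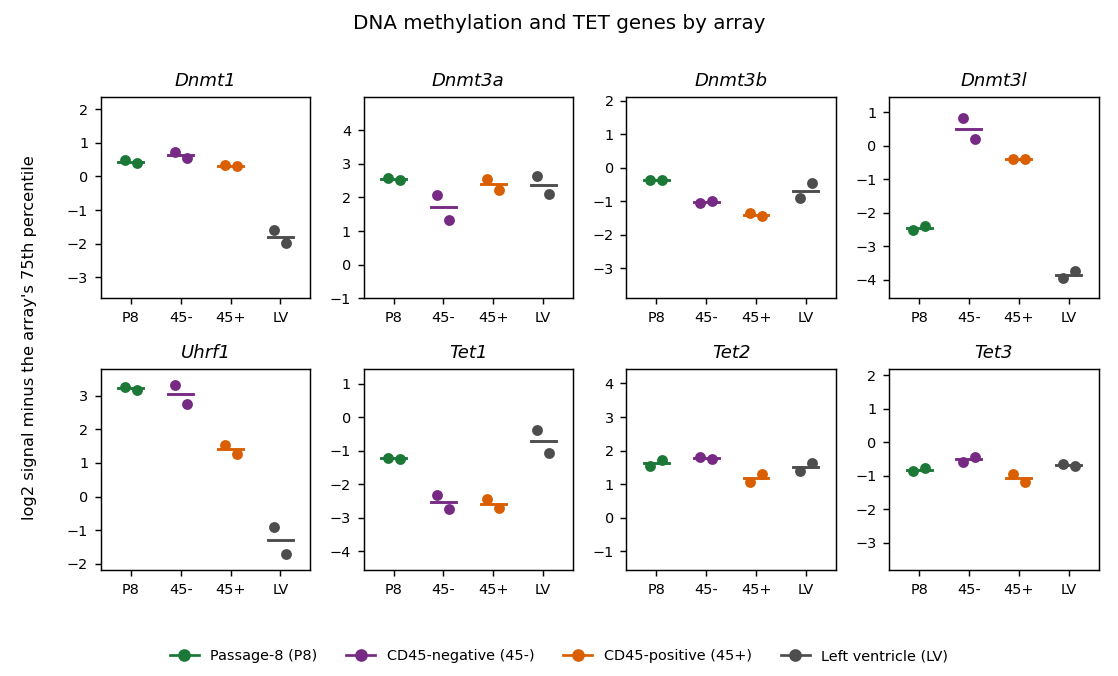
Level of the DNA methyltransferase genes, Uhrf1 and the TET genes on each array (y axis, log2 signal minus the array's 75th percentile; every panel spans the same number of log2 units), for passage-8 (P8), CD45-negative (45-) and CD45-positive (45+) cells and left ventricle (LV). Points are arrays and lines group means: left ventricle is lowest in Dnmt1, Dnmt3l and Uhrf1, and Dnmt3l is higher in both primary cell groups than in passage-8 cells.

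Of the TET dioxygenases only Tet1 passed a comparison. Tet1, the form prominent in embryonic stem cells, measured -1.21 and -1.25 in passage-8 cells, -2.32 and -2.73 in CD45-negative cells, -2.45 and -2.71 in CD45-positive cells, with -0.38 and -1.06 in left ventricle. The primary cells of both sorts overlapped and lay below passage-8 cells and left ventricle. Tet1 was lower than in left ventricle in CD45-negative cells (-1.80, SE 0.28, 3.49-fold, adjusted p = 0.00285) and CD45-positive cells (-1.85, SE 0.28, 3.62-fold, adjusted p = 0.00275), and both calls held under every alternative. It was higher in passage-8 cells than in CD45-negative cells by 1.30 (SE 0.28, adjusted p = 0.0257) and than in CD45-positive cells by 1.35 (SE 0.28, adjusted p = 0.0149). The call at 1.35 was lost without any 1 of the 4 arrays compared, while the difference stayed at 1.22 to 1.48. The call at 1.30 was lost without either passage-8 array, CD45-negative array 2 or either CD45-positive array, at 1.09 to 1.32. After normexp background correction the 1.30 came to 0.54 (adjusted p = 0.133), and it was also lost under 3 other settings (adjusted p = 0.0522 to 0.0779).

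The Tet1 probes were also read separately. Probe A_51_P512172, used above, lies at chr10:62276042-62276101 in build mm9, minus strand, and A_55_P2122997 at chr10:62274448-62274507 and A_55_P2123002 at chr10:62301856-62301915 on the same strand, and their place in exons was not analysed here. On A_55_P2122997 the values were -0.23 and -0.26 in passage-8 cells, -2.18 and -2.85 in CD45-negative cells, -4.79 and -5.35 in CD45-positive cells, with -0.39 and -1.86 in left ventricle. CD45-positive array 2, at -5.35, was not well above background, so no fold is given against CD45-positive cells, whose 2 arrays both lay below the CD45-negative ones. Tested with all probes, passage-8 minus CD45-negative cells was 2.27 (SE 0.51, adjusted p = 0.0273). Passage-8 and CD45-negative cells each passed as higher than CD45-positive cells (adjusted p = 0.00149 and 0.0138). CD45-negative cells minus left ventricle was -1.39 on this probe (adjusted p = 0.0629) and did not pass. On A_55_P2123002 the same comparison passed as lower (adjusted p = 0.00298). Probe A_55_P2123002 was not well above background on any array of either primary cell group, so its passage-8 level, -2.12 and -2.23, was at least 8.96-fold higher than in CD45-positive cells (adjusted p = 0.0011) and at least 4.21-fold higher than in CD45-negative cells (adjusted p = 0.00553). For such a bound each dim array was given the probe's own signal or, if larger, the lowest signal of any probe well above background there, and the bright group's mean was divided by the result.

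**Figure D5:**
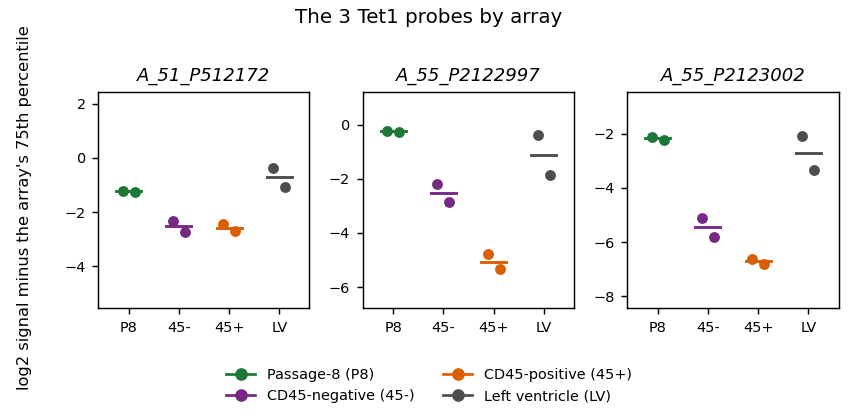
Level of Tet1 by each of its 3 probes on each array (y axis, log2 signal minus the array's 75th percentile; the panels span the same number of log2 units), for passage-8 (P8), CD45-negative (45-) and CD45-positive (45+) cells and left ventricle (LV). Points are arrays and lines group means: passage-8 cells lie above both primary cell groups on each probe, by 1.35 over CD45-positive cells on A_51_P512172, while 1 of 2 CD45-positive arrays on A_55_P2122997 and all 4 arrays of the primary cells on A_55_P2123002 were not well above background.

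Tet2, which is often mutated in blood cell disorders, and Tet3, active in the fertilised egg, passed in 0 comparisons. Their group means spanned 0.61 and 0.55, and both were lowest in CD45-positive cells, with means of 1.18 and -1.07.

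Other probes of the same gene were read beside these calls. For 40 of the 63 passing differences at least 1 other probe of the gene was tested, and at least 1 passed in the same direction for 30 of them and all did for 22. Another probe passed in the opposite direction for 0 of the 40. A probe dim in 1 of 2 groups was tested only because the other group was brighter, so these counts are a description. Tet1 probe A_55_P2123002 was dim in this way in the primary cells, and the dimmer Uhrf1 probe in left ventricle. Some other probes passed where the probe used did not. In passage-8 minus CD45-negative cells they gave 1.33 for Pcgf2 and 1.09 for Dnmt3b, where the probes used gave -0.19 and 0.66. In passage-8 cells minus left ventricle they gave -1.23 for Phc1, 2.06 for Phc3 and 1.11 for Tet3, against 0.55, 0.46 and -0.13. The Phc3 and Tet3 probes were not well above background there. That Phc3 probe also passed in CD45-positive cells minus left ventricle. The Uhrf1 probe other than the one used was not well above background in left ventricle, and its level was at least 5.27-fold higher in passage-8 cells, at least 2.51-fold higher in CD45-negative cells and at least 1.81-fold higher in CD45-positive cells than there.

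Another 53 genes of the same pathways were listed in 7 groups, of which 49 or 50 were tested per comparison. In passage-8 against CD45-positive cells 12 were higher and 5 lower, or 24.5% and 10.2% of those tested, beside 13.7% and 11.5% of all genes. In CD45-negative against CD45-positive cells 4 were higher and 4 lower, 8.16% each way, which is below the 12.2% and 11.4% of all genes. In passage-8 against CD45-negative cells 5 were higher and 2 lower, 10.2% and 4.08%, beside 8.37% and 7.85%. Compared with left ventricle, passage-8 cells had 13 of them higher and 5 lower, 26% and 10% beside 20.7% and 19.5% of all genes. CD45-negative cells had 13 and 4, 26% and 8% beside 20.6% and 19.9%, and CD45-positive cells 9 and 5, 18% and 10% beside 18.6% and 20.5%.

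The PRC1 partner Auts2, which turns a Pcgf5 form of PRC1 towards activation, measured 1.84 and 1.74 in passage-8 cells, 1.27 and 1.33 in CD45-negative cells, -1.66 and -1.57 in CD45-positive cells, with 1.02 and 1.40 in left ventricle. It was higher than in CD45-positive cells by 3.41 in passage-8 cells (SE 0.19, 10.6-fold, adjusted p = 0.00022) and by 2.91 in CD45-negative cells (SE 0.19, 7.53-fold, adjusted p = 0.000768), and lower in CD45-positive cells than in left ventricle by -2.82 (SE 0.19, adjusted p = 0.000139). Sfmbt2, a relative of a Drosophila protein of the PhoRC complex, was higher than in CD45-positive cells by 3.10 in passage-8 cells and 1.87 in CD45-negative cells (adjusted p = 0.00123 and 0.00765), while its relative Sfmbt1 was lower by -2.40 and -1.74 (adjusted p = 0.00125 and 0.00441). L3mbtl2, a subunit of a variant PRC1, had a CD45-negative minus CD45-positive difference of -2.30 (adjusted p = 0.00209), with 1 of 2 CD45-negative arrays well above background. Uhrf2, the relative of Uhrf1, was higher than in left ventricle by 2.43 in passage-8 cells, 1.45 in CD45-negative cells and 1.13 in CD45-positive cells (adjusted p = 0.000181, 0.00114 and 0.00318). Of the 2 other PRC2 genes that passed against CD45-positive cells, both in passage-8 cells, Rbbp7, a histone-binding subunit, was higher by 1.22 (adjusted p = 0.0042) and Aebp2, a cofactor, by 1.06 (adjusted p = 0.0086).

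In the list on DNA demethylation and repair, Tdg, the glycosylase that removes the bases the TET enzymes have oxidised, was higher in passage-8 than in CD45-positive cells by 1.45 (adjusted p = 0.00247) and than in left ventricle by 2.29 (adjusted p = 0.000229). Apobec1, a cytidine deaminase that edits Apob RNA, was lower than in CD45-positive cells by -5.28 in passage-8 cells and -3.95 in CD45-negative cells (adjusted p = 0.0011 and 0.00347). Idh2, a mitochondrial enzyme whose normal product is the co-substrate of TET enzymes, was lower than in left ventricle by -3.19 to -4.23 in the 3 cell groups. Among the methyl donor genes Ahcy, which clears the inhibitory by-product of methyl transfer, was higher in passage-8 cells than in each other group, by 2.00 against CD45-positive cells, 1.94 against CD45-negative cells and 3.72 against left ventricle (adjusted p = 0.00927, 0.0165 and 0.00049).

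A list of 20 classical Polycomb targets, developmental genes and Cdkn2 inhibitors that carry the mark in many cell types, was read beside the machinery. Against CD45-positive cells 16 could be tested, the others being dim in both groups, and in passage-8 cells 10 of them rose and 4 fell, where 13.7% and 11.5% of all genes did. Against CD45-negative cells 15 could be tested, and in passage-8 cells 9 rose and 3 fell, where 8.37% and 7.85% of all genes did. A target dim in 1 of 2 groups was tested only because the other group was brighter, so these counts are a description and nothing was read from them. Hoxa7, a homeobox gene of body patterning, measured 3.26 and 3.28 in passage-8 cells, -3.48 and -5.20 in CD45-negative cells, -4.65 and -4.80 in CD45-positive cells, with -4.22 and -4.22 in left ventricle. Passage-8 cells were above every other array, by 7.99 against CD45-positive cells (SE 0.52, 255-fold, adjusted p = 0.000321). Hoxd4, Hoxa5 and Hoxd8 were not well above background in CD45-positive cells and were at least 68.3-fold, at least 40.0-fold and at least 109-fold higher in passage-8 cells (adjusted p = 0.000194, 0.000478 and 0.000343).

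Cdkn2a and Cdkn2b, inhibitors of the cell cycle and targets of Bmi1 and Cbx7, fell in passage-8 cells against both primary cell groups. Cdkn2a measured 0.31 and 0.85 in passage-8 cells, 5.11 and 5.51 in CD45-negative cells, 3.59 and 4.0 in CD45-positive cells, with -3.91 and -6.72 in left ventricle, where 1 of 2 arrays was well above background. It was lower in passage-8 cells than in CD45-negative cells (-4.73, SE 0.85, 26.5-fold, adjusted p = 0.0138) and than in CD45-positive cells (-3.22, SE 0.85, 9.29-fold, adjusted p = 0.0313). Cdkn2b was lower in passage-8 cells by -4.70 and -3.33 in the same 2 comparisons (adjusted p = 0.000603 and 0.000893). Sox17, a factor of endoderm and endothelium, was not well above background in passage-8 cells and was at least 2.57-fold lower there than in CD45-positive cells (adjusted p = 0.00699). The Polycomb mark at these targets was not measured.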

How the data were processed

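The files are the scanner output of 8 one-colour (Cy3) Agilent arrays on 1 slide, with 62976 spots each, whose images were quantified in Agilent Feature Extraction 10.7 according to the submitters' processing notes. Their processed signal is an intensity that the scanner software had background-subtracted, per the file headers. A deposited value table from the authors holds log2 values of the same arrays. Its order of probes within an array equals that of the median signal minus background (rank correlation 1.0), while the sources used here do not give the tool behind its scaling, so it served as an alternative.

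The members and all gene lists were chosen with earlier results of these data known. From each array control spots (3671) and outlier spots were left out, spots of 1 probe were averaged, and log2 of the processed signal minus the array's 75th percentile was taken. The probe with the highest mean stood for a gene. limma 3.58.1 in R 4.3.3 fitted 1 mean per group over all 8 arrays (4 residual and, after moderation, 6.154 total degrees of freedom), and Benjamini-Hochberg adjustment ran over all genes tested. A gene was tested if either of the 2 groups had its probe well above background on each of its arrays, and passed at an adjusted p under 0.05 with a log2 difference of at least 1. An exact permutation test of 2 arrays against 2 cannot go below p = 0.333. On simulated data for CD45-negative minus CD45-positive cells with 24630 genes, 55 of 100 genes changed by 2 log2 units passed, 83 of 100 changed by 4, and 5 of 24430 unchanged. The simulated spread of a gene was equal in all groups. In the data the root mean square SD over all genes well above background was 0.53 in CD45-negative and 0.18 in CD45-positive cells. The simulated rates therefore do not describe this comparison. All 32 members were named, and from each other list at most 4 passing genes per comparison and direction, the largest differences first. The number of arrays limits the precision. The alternatives were quantile normalization, median centring, normexp background correction (offset 50), the authors' table, the mean of all probes, 2 other filters on dim probes, no minimum difference, a fit to the 2 groups compared, array weights, a replicate block, and leaving out each array. Start windows are from RefSeq on GRCm38.p6, while probe positions in the files are on mm9, and these were not combined.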

Additional observations from a re-analysis of the deposited data

How the results depend on the processing

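Of the 63 passing differences of the 32 genes, 35 passed under every alternative, 28 were lost under at least 1, and 0 turned in direction. Not every alternative could take away a call. The filter asking for a signal well above background on all 8 arrays was already met by all 32 genes and left all 192 results the same. Dropping the minimum log2 difference can only add calls. With no minimum log2 difference, the count of passing genes was 12 in place of 7 for CD45-negative minus CD45-positive cells, 8 in place of 4 for passage-8 minus CD45-negative cells and 19 in place of 11 for CD45-positive cells minus left ventricle. The count for passage-8 minus CD45-negative cells was 2 with no filter on dim probes, 2 with only the 2 groups compared and 1 with array weights. Among all genes tested, fewer also passed under each of these settings. With 1 array left out, the count ran from 8 to 15 for passage-8 minus CD45-positive cells, from 2 to 9 for CD45-negative minus CD45-positive cells and from 1 to 5 for passage-8 minus CD45-negative cells. Against left ventricle it ran from 13 to 14 in passage-8 cells, 12 to 14 in CD45-negative cells and 9 to 12 in CD45-positive cells. With 1 array left in a group, that array was assumed to vary like the other groups. With the replicate number as a replicate block the counts were 14 for passage-8 and 6 for CD45-negative minus CD45-positive cells, 4 for passage-8 minus CD45-negative cells, and 14, 12 and 11 for passage-8, CD45-negative and CD45-positive cells minus left ventricle. Same-numbered arrays did not deviate together (correlations of -0.196 to 0.193 between groups), so the numbers were not read as pairs. Scaling moved the median of all genes from 0.06 to -0.09 in CD45-negative cells and from 0.05 to -0.08 in passage-8 cells minus left ventricle with median centring, from 0.17 to 0.07 in CD45-negative minus CD45-positive cells with quantile normalization, and to -0.26 in passage-8 minus CD45-negative cells with normexp. The cause of these shifts was not tested.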
